A study of Mus musculus with 10 samples.

Results

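Serotonin (5-hydroxytryptamine) is made in 2 enzymatic steps, packed into secretory vesicles, released, taken back up and degraded. Tryptophan hydroxylase carries out the rate-limiting step, and aromatic L-amino acid decarboxylase completes the synthesis of the amine. In pancreatic β-cells serotonin is stored with insulin, and β-cells are known for raising its synthesis in pregnancy, when placental lactogens act on the prolactin receptor. Described here are 10 of the 47340 genes of the expression table, chosen by symbol because they encode the steps of this route: the hydroxylases Tph1 and Tph2, the decarboxylase Ddc, the transporters Slc18a1, Slc18a2 and Slc6a4, the monoamine oxidases Maoa and Maob, and the receptors Htr1d and Htr2b.

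RNA was sequenced from pancreatic islets of 12-wk-old male mice fed chow, with 5 floxed controls (FL) and 5 β-cell FIT2 knockouts (KO) and 1 library per mouse. FIT2, encoded by Fitm2, is an endoplasmic reticulum protein of lipid droplet formation. KO mice carried FIT2 fl/fl and a Cre driven by the rat insulin promoter (Ins2-cre), whereas FL mice were FIT2 fl/fl littermates without Cre, which the genotype label calls wild type, so that loss of FIT2 and presence of the Cre transgene cannot be told apart. Islets were kept overnight in CMRL medium before RNA extraction, and each library is a mixture of all islet cells in which only β-cells were targeted.

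Values are FPKM (read counts scaled by transcript length and by library depth), given as mean ± SD with n = 5 mice. Fitm2 was at 16.9, 30.5, 16.5, 37.1 and 15.5 FPKM in FL and at 4.56, 4.3, 7.75, 9.13 and 9.0 FPKM in KO (log2 fold change −1.58, limma adjusted p = 0.00228), so every library sat on its labelled side. The spacing of low values put the level of 1 read on a transcript of 1 kb at 0.0196 to 0.0472 FPKM in FL and 0.0229 to 0.0311 FPKM in KO, so that FL1, with the largest step, was the shallowest library. Of the islet markers, Ins1, Ins2, Iapp, Gcg and Chga were listed at 0 in all 10 libraries, and an exact 0 in this table may be a failed estimate. Slc2a2, Pdx1, Nkx6-1 and Mafa were present in all libraries. Of 7 tested β-cell markers 6 fell in KO, where 16.5% of all tested genes were called lower, and the summed level of the list went from 2273–2844 FPKM in FL to 1511–2124 FPKM in KO. Of 5 tested α-cell markers Irx1 and Ttr also fell, with a summed level of 435–650 FPKM in FL and 288–429 FPKM in KO, although the call of Irx1 was lost with no filter (limma adjusted p = 0.0658). Of 5 markers of δ- and PP-cells 4 were not called, Sst was called lower (0.0303, but 0.413 with no filter), and the summed levels overlapped (10825–26724 FPKM in FL and 16536–22674 FPKM in KO). Markers of endothelium (4 of 6), macrophages (2 of 5) and fibroblasts and pericytes (5 of 5) rose, where 9.05% of all tested genes were called higher, with summed levels of 126–144, 116–142 and 17.0–24.7 FPKM in FL and 150–197, 167–203 and 32.1–39.9 FPKM in KO. With no filter the calls of Plvap, Col1a1 and Rgs5 among these were lost (limma adjusted p = 0.0672, 0.0955 and 0.0687). The 7 acinar markers summed to 20315 FPKM in KO5, against 2702–8161 FPKM in the other KO mice and 4120–10936 FPKM in FL. The part of these shifts in the results below was not tested, and in whole islets fewer cells of a type and less RNA per cell cannot be told apart.

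In KO islets the route changed unevenly. Transcripts of both tryptophan hydroxylases and of the vesicular monoamine transporter Slc18a1 rose, Tph1 from almost no reads to 11.8 ± 2.65 FPKM. The decarboxylase Ddc and the oxidase Maob, which were abundant in both groups, fell to 0.789 and 0.757 of their FL means, and Maoa did not pass the test. The plasma membrane serotonin transporter Slc6a4, the transporter Slc18a2 and both receptors stayed under 1 FPKM in every library. The test was limma on log2(FPKM + 1) for the 13065 genes whose mean reached 1 FPKM in either group, and a gene was called at a Benjamini-Hochberg adjusted p of at most 0.05. Of the 10 genes, 3 were called higher, against 9.05% of all tested genes, 2 were called lower, against 16.5%, 1 was not called and 4 were below the filter. Over all tested genes 1183 were higher and 2150 lower, a split that upper-quartile scaling turned to 2007 and 899 without changing the calls of these 10 genes. Tph1 and Tph2 entered the test through their KO levels alone, and with no filter their limma adjusted p were 1.82e-07 and 0.00028. The median log2 fold change of all tested genes was −0.06, with the 5th to 95th percentile from −0.46 to 0.47, and the added 1 FPKM makes folds of low genes smaller than the ratio of their means.

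**Figure D1:**
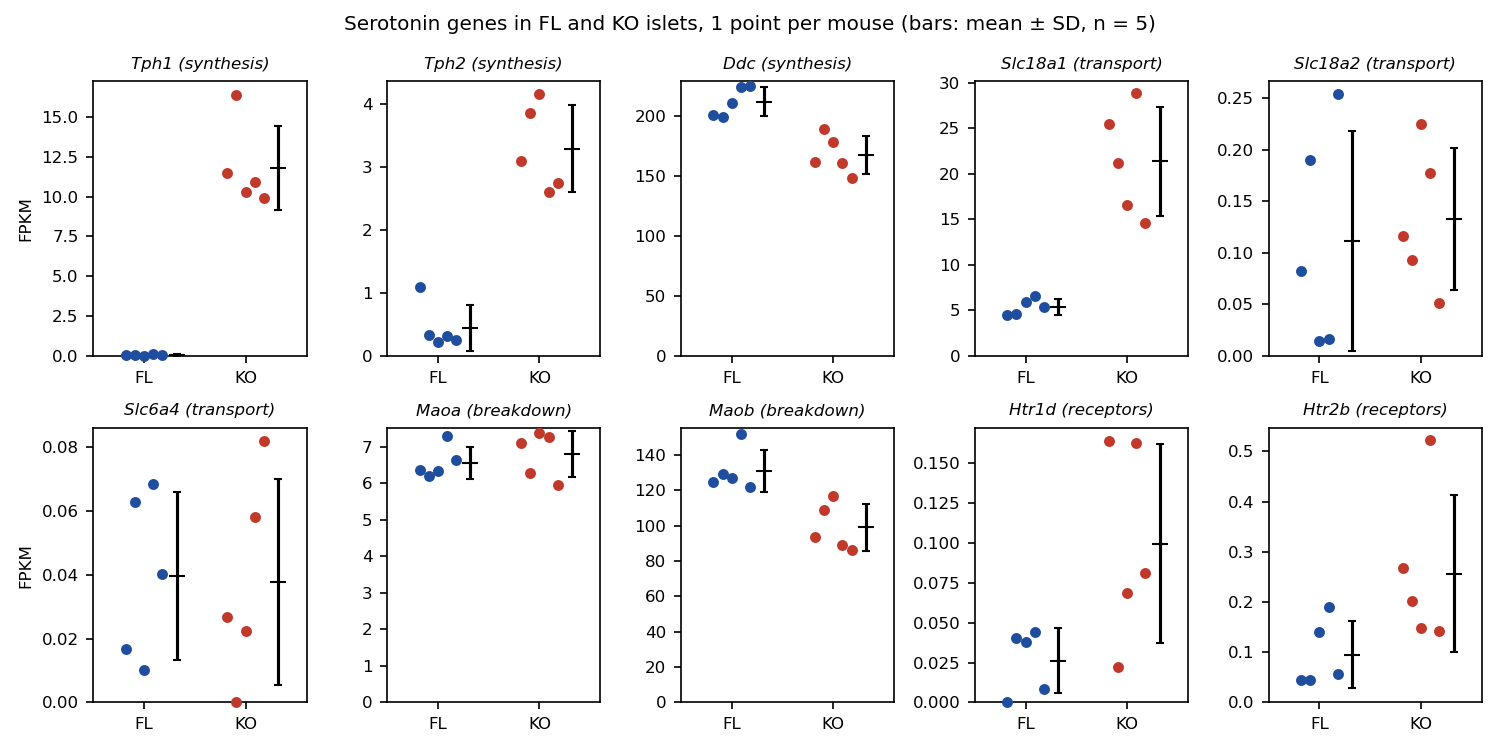
FPKM of the 10 serotonin genes (vertical axes from 0, scale differing by panel) in 5 FL mice (blue) and 5 KO mice (red), 1 point per mouse in replicate order, with mean ± SD beside each group. Tph1, Tph2 and Slc18a1 have all KO points above all FL points, and Ddc and Maob have all KO points below.

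The hydroxylases come first in the route. Tph1 (ENSMUSG00000040046.13, GRCm38 chr7:46644641-46672537, minus strand) encodes the hydroxylase of peripheral tissues, and Tph2 (ENSMUSG00000006764.8, chr10:115078641-115185022, minus strand) that of serotonin neurons. Because both transcripts rose, the 250 bases before their RefSeq start sites (GRCm38.p6) are shown 5′ to 3′ on the transcribed strand, with matches on either strand to TATAAA or CCAAT in capitals. TTCNNNGAA, the letters of a STAT-type site, was searched for as well. The Tph1 windows are chr7:46672538-46672787, before the upstream start, and chr7:46667378-46667627, before an internal start, and the Tph2 window is chr10:115185023-115185272.
Tph1 upstream start: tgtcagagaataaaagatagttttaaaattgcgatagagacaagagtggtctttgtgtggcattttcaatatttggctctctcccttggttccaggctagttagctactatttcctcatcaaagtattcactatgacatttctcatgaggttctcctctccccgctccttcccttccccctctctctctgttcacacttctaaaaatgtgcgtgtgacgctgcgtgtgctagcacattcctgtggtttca
Tph1 internal start: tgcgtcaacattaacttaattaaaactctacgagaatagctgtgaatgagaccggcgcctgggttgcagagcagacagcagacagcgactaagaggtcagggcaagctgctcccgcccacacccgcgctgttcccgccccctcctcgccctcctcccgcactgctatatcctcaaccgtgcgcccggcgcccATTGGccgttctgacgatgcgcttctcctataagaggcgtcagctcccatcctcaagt
Tph2: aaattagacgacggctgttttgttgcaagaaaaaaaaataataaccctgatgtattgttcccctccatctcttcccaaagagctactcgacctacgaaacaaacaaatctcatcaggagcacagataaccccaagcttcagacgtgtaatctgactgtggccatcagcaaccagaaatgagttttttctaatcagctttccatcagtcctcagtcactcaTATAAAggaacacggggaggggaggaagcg
The upstream Tph1 window held none of the 3 motifs. The internal one held a CCAAT on the opposite strand 58 bases before its start, and the Tph2 window held TATAAA 30 bases before its start. Among 32851 mouse promoter windows of this length, 33.8% held CCAAT, 12.4% TATAAA and 7.02% TTCNNNGAA. TTCNNNGAA was in none of the 11 windows found for 8 of the 10 genes, and no window was found for Slc18a1 or Maob. These matches are letters only, and no binding was measured.

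In FL islets Tph1 was at 0.0272, 0.0351, 0, 0.13 and 0.0515 FPKM in mice 1 to 5, and in KO islets at 11.5, 16.4, 10.3, 10.9 and 9.9 FPKM. Taken on its longest annotated transcript, these values stand for about 0 to 17 reads per FL library and 1513 to 2990 per KO library. The groups were far apart, and no FL library came near the lowest KO library. The log2 fold change was 3.59 (SE 0.12, 95% interval 3.33 to 3.85, limma adjusted p = 7.75e-09), rank 11 from the top among 13065 genes. The ratio of the group means was 242, although its denominator rests on a handful of reads, and with 0.01 FPKM added in place of 1 the log2 fold change was 8.08.

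Tph2 was at 1.1, 0.327, 0.221, 0.311 and 0.247 FPKM in FL and at 3.09, 3.86, 4.15, 2.6 and 2.74 FPKM in KO. Every KO library was above every FL library, and FL1, the shallowest library, was well above the other FL mice. Tph2 rose from 0.441 ± 0.37 to 3.29 ± 0.685 FPKM, a log2 fold change of 1.59 (SE 0.17, 95% interval 1.23 to 1.95, limma adjusted p = 6.41e-05) and a ratio of means of 7.46. Without FL1 the log2 fold change was 1.73. The values stand for about 20 to 61 reads in FL and 240 to 405 in KO.

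The makeup of the pair turned over as well. Tph1 made up 2.42, 9.69, 0, 29.5 and 17.2% of the summed hydroxylase FPKM in FL, and 78.8, 81.0, 71.3, 80.7 and 78.3% in KO, so the paralog that was in the minority in each FL mouse was in the majority in each KO mouse. The mean share went from 11.8 ± 12.0% to 78.0 ± 3.92% (exact two-sided permutation p = 0.00794, the smallest that 5 mice against 5 can give, adjusted to 0.00926 over 7 shares and ratios). FL shares rest on few Tph1 reads, and their spread was wide. Summed hydroxylase transcript went from 0.489 ± 0.364 to 15.1 ± 3.0 FPKM.

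**Figure D2:**
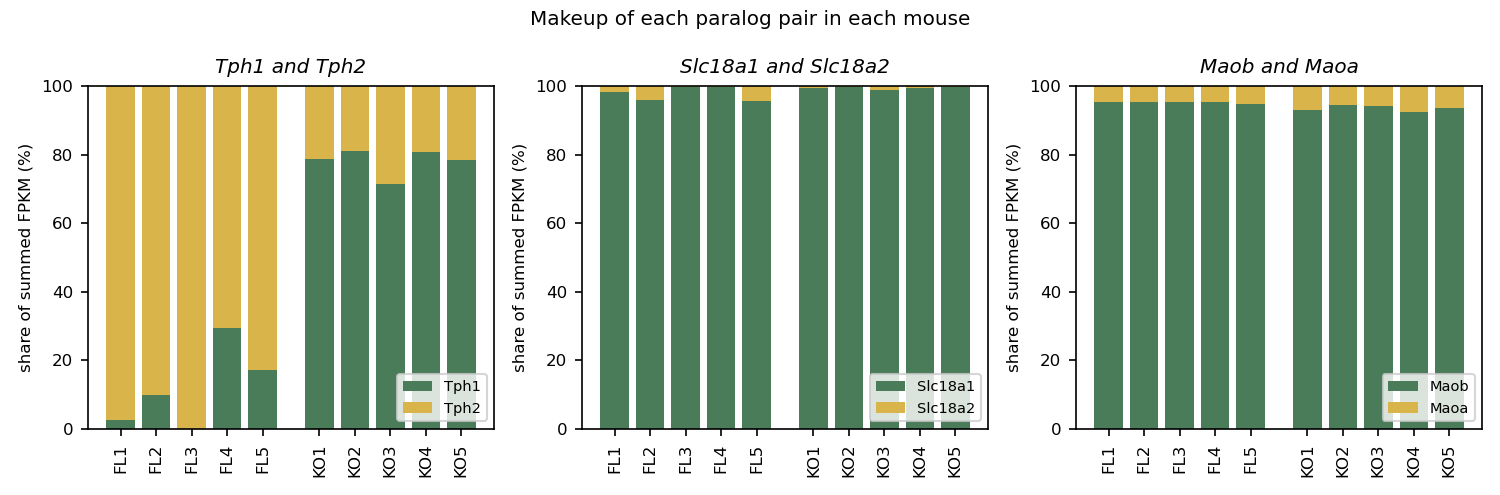
Share of the summed FPKM (percent, 0 to 100) held by each member of 3 paralog pairs in each FL and KO mouse. Tph1 goes from at most 29.5% in FL to at least 71.3% in KO, whereas Slc18a1 and Maob hold over 92% of their pair in all 10 mice.

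Those genes beside the hydroxylases that had a level above 0 did not move to a like extent. Sergef, the nearest protein-coding gene, 4834 bases beyond the 3′ end of Tph1, was at 9.24 ± 1.76 FPKM in FL against 11.4 ± 2.02 FPKM in KO (log2 difference 0.28, limma adjusted p = 0.172). Saal1, on the side of the Tph1 start, was at 2.28 ± 0.236 and 2.29 ± 0.246 FPKM. Tbc1d15, on the side of the Tph2 start, rose from 40.4 ± 3.79 to 48.4 ± 3.41 FPKM (log2 fold change 0.26, limma adjusted p = 0.023), and Trhde, on its other side, was listed at 0 in all libraries.

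Ddc (ENSMUSG00000020182.16, chr11:11814101-11898144, minus strand), which decarboxylates 5-hydroxytryptophan to serotonin and L-dopa to dopamine, was at 201, 199, 211, 224 and 225 FPKM in FL and at 162, 189, 178, 161 and 148 FPKM in KO. All KO libraries lay below all FL libraries. The mean fell from 212 ± 12.4 to 167 ± 16.2 FPKM (log2 fold change −0.34, SE 0.07, 95% interval −0.50 to −0.19, limma adjusted p = 0.00514). Ddc thus moved against the hydroxylases, yet it remained the more abundant transcript: per length, Ddc stood at 589 ± 291 times the summed hydroxylases in FL (178 to 956) and at 11.3 ± 1.17 times in KO (9.32 to 12.3).

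Slc18a1 (ENSMUSG00000036330.12, chr8:69037711-69089235, minus strand) encodes VMAT1, which loads monoamines into secretory granules of endocrine cells. It was at 4.51, 4.58, 5.89, 6.55 and 5.36 FPKM in FL and at 25.4, 21.2, 16.6, 28.9 and 14.6 FPKM in KO. The lowest KO library was above the highest FL library, and the KO libraries spread more widely than the FL ones. Slc18a1 rose from 5.38 ± 0.868 to 21.4 ± 5.95 FPKM (log2 fold change 1.78, SE 0.17, 95% interval 1.40 to 2.16, limma adjusted p = 3.71e-05), a ratio of means of 3.97. Its 5′ end overlaps Atp6v1b2, a proton pump subunit gene on the opposite strand, which was at 222 ± 14.0 FPKM in FL against 249 ± 16.2 FPKM in KO (limma adjusted p = 0.0622). Lpl, the next protein-coding gene beyond its 3′ end, fell from 85.2 ± 9.31 to 62.8 ± 11.7 FPKM (log2 fold change −0.44, limma adjusted p = 0.0168).

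Slc18a2 (ENSMUSG00000025094.7, chr19:59260896-59296012, plus strand) encodes VMAT2, the vesicular transporter of monoamine neurons. It was at 0.0824, 0.19, 0.0142, 0.0167 and 0.254 FPKM in FL and at 0.116, 0.0936, 0.225, 0.178 and 0.0515 FPKM in KO. The groups overlapped throughout (exact two-sided permutation p = 0.643), and with no filter on low values the limma adjusted p was 0.823. Slc18a1 held 95.5 to 99.8% of the vesicular transporter FPKM in FL and 98.7 to 99.6% in KO. Ddc per Slc18a1 went from 40.0 ± 4.64 to 8.33 ± 2.28 without overlap.

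Slc6a4 (ENSMUSG00000020838.12, chr11:76998603-77032340, plus strand), the serotonin reuptake transporter and target of the drugs named for it, was at 0.0168, 0.0627, 0.0101, 0.0685 and 0.0403 FPKM in FL and at 0.0268, 0, 0.0222, 0.058 and 0.0818 FPKM in KO. No library stood for more than about 10 reads. A difference was not detectable at this depth (exact two-sided permutation p = 0.913).

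The oxidases begin the breakdown of serotonin, Maoa with the higher affinity for it and Maob for other amines. Maob (ENSMUSG00000040147.14, chrX:16709282-16817366, minus strand) was at 125, 129, 127, 152 and 122 FPKM in FL and at 93.9, 109, 117, 89.2 and 86.1 FPKM in KO. No KO library reached the lowest FL library. Maob fell from 131 ± 12.2 to 99.1 ± 13.4 FPKM (log2 fold change −0.40, SE 0.09, 95% interval −0.61 to −0.20, limma adjusted p = 0.00997). Maoa (ENSMUSG00000025037.6, chrX:16619698-16687818, plus strand) lies beside it in the opposite orientation and was at 6.36, 6.2, 6.33, 7.29 and 6.64 FPKM in FL and at 7.11, 6.28, 7.38, 7.27 and 5.96 FPKM in KO. The groups overlapped, and the log2 difference of 0.04 had a 95% interval of −0.11 to 0.19 (limma adjusted p = 0.681). Maob was the major form in every mouse, at 94.8 to 95.4% of the summed oxidase FPKM in FL and 92.5 to 94.6% in KO. That share was lower in each KO mouse than in any FL mouse (exact two-sided permutation p = 0.00794).

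The receptors were at the edge of detection. Htr1d (ENSMUSG00000070687.11, chr4:136423524-136444398, plus strand), a Gi-coupled receptor, was at 0, 0.0405, 0.0379, 0.0443 and 0.00863 FPKM in FL and at 0.164, 0.022, 0.0686, 0.163 and 0.0809 FPKM in KO. Of the KO libraries 4 were above all FL libraries and 1 was not (exact two-sided permutation p = 0.0317, unadjusted, and 0.0556 to 0.0952 without any 1 FL mouse, KO1 or KO4; limma adjusted p = 0.118 when no filter was used). These levels stand for about 0 to 4 reads in FL and 3 to 17 in KO.

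Htr2b (ENSMUSG00000026228.6, chr1:86099026-86111970, minus strand), a Gq-coupled receptor, was at 0.0451, 0.0437, 0.141, 0.191 and 0.0562 FPKM in FL and at 0.267, 0.203, 0.149, 0.522 and 0.143 FPKM in KO. Of the KO libraries 3 were above the highest FL library, and the other two lay within the FL range (exact two-sided permutation p = 0.0317, unadjusted, and 0.0556 to 0.0873 without FL1, FL2, FL3, FL5, KO1, KO2 or KO4; limma adjusted p = 0.16 with no filter). Htr2b lies within Psmd1 on the opposite strand, a proteasome subunit gene at 59.4 ± 2.37 FPKM in FL that fell to 53.5 ± 2.57 FPKM in KO (log2 fold change −0.15, limma adjusted p = 0.0391). The library kit marks the strand, but the strand setting of the counting is not given in the sources used here.

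**Figure D3:**
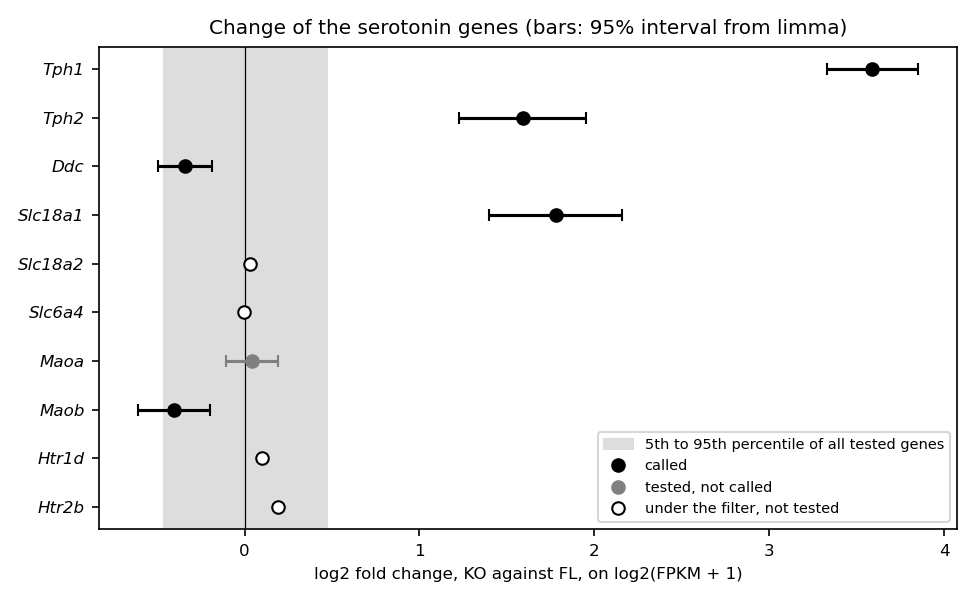
Log2 fold change of the 10 genes on log2(FPKM + 1), with 95% intervals from limma for the 6 tested genes. Open points are genes under the filter, and the grey band is the 5th to 95th percentile of all tested genes, which Tph1, Tph2 and Slc18a1 lie beyond.

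Within the KO group Tph1 was highest in KO2, Tph2 in KO3 and Slc18a1 in KO4, and KO5, the library with the highest acinar markers, was lowest for 7 of the 10, namely Tph1, Ddc, Slc18a1, Slc18a2, Maoa, Maob and Htr2b. Outside the route, KO5 was also the lowest KO library for the β-cell markers Slc2a2 and Slc30a8, though not for Mafa. The share of all tested genes with KO5 lowest was not computed, so this count is not read as a trait of the 10 genes. Without KO5 the log2 fold changes of Tph1, Slc18a1, Ddc and Maob were 3.64, 1.90, −0.299 and −0.355, and these 4 calls held. The genes whose log2 values followed Tph1 most closely over the 10 libraries were Dnah8 (Pearson r = 0.9981), Adarb2 (0.9977), Pcsk2os1 (0.9976), Gpr26 (0.9969) and Fbxw24 (0.9964). All 5 were near 0 or listed at 0 in FL and present in KO, Dnah8 at 8.99 ± 0.855 FPKM and Pcsk2os1, listed at 0 in FL, at 23.4 ± 2.03 FPKM, so that these coefficients mostly restate the gap between the groups. The zeros of Pcsk2os1, like other exact zeros here, may be failed estimates, so its change is not read as a rise.

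A further 71 genes of serotonin and tryptophan metabolism were read in the same fit. Of 35 that could be tested, 3 were called higher and 11 lower, against 9.05% and 16.5% of all tested genes, and their median log2 fold change was −0.10 against −0.06. Upper-quartile scaling gave 5 higher and 5 lower in the list. FL and KO did not overlap, with KO above, for 2 of the 35, against 6.67% of all tested genes, and with KO below for 8, against 12.5%.

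Genes for tetrahydrobiopterin, the cofactor that both tryptophan hydroxylases need, fell or did not pass. Gch1, the first enzyme of its synthesis, fell from 208 ± 12.1 to 160 ± 6.42 FPKM (log2 fold change −0.38, limma adjusted p = 4.51e-04). The pterin dehydratases Pcbd1 (179 ± 5.13 to 147 ± 6.7 FPKM) and Pcbd2 (58.6 ± 3.3 to 45.1 ± 4.34 FPKM) also fell. Pts, Spr and Qdpr did not pass. In all, 3 of 7 tested cofactor genes were called lower, against 16.5% of all tested genes.

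Of the carriers of tryptophan, Slc7a5, the light chain of the large neutral amino acid exchanger, fell from 179 ± 12.3 to 151 ± 9.73 FPKM (limma adjusted p = 0.0129), a call lost with upper-quartile scaling (0.0739). Slc16a10, an aromatic amino acid transporter, fell from 59.9 ± 2.9 to 46.7 ± 3.3 FPKM (log2 fold change −0.36). Slc3a2, the heavy chain and the most abundant of the class, was at 753 ± 46.3 FPKM in FL against 840 ± 59.4 FPKM in KO (limma adjusted p = 0.0854) and passed as higher with upper-quartile, median-ratio and quantile scaling.

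Tdo2, which opens the competing kynurenine route of tryptophan, rose from 2.21 ± 0.231 to 5.01 ± 0.576 FPKM (log2 fold change 0.90, limma adjusted p = 2.77e-05). Kyat1, the most abundant gene of that route, was at 7.85 ± 0.636 and 8.19 ± 0.847 FPKM. Of the 12 kynurenine genes 8 were under the filter, among them Kynu (kynureninase), which was at 0.345 ± 0.102 FPKM in FL and at 0.0738 ± 0.0362 FPKM in KO, with every KO library below every FL library (limma adjusted p = 0.0026 when no filter was used). Th, which makes L-dopa for dopamine, was at 32.3 ± 8.58 FPKM in FL against 22.0 ± 6.32 FPKM in KO (limma adjusted p = 0.077). It passed as lower with sample weights (limma adjusted p = 0.0217), without KO2 (0.0456) and without KO3 (0.0424).

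Downstream of the oxidases, 3 aldehyde dehydrogenases could be tested. Aldh3a2 was at 68.0 ± 4.83 FPKM in FL against 66.7 ± 5.66 FPKM in KO (limma adjusted p = 0.795). Aldh9a1 rose from 49.2 ± 0.85 to 64.3 ± 5.21 FPKM (log2 fold change 0.38, limma adjusted p = 7.59e-04), and Aldh2 fell from 53.8 ± 2.79 to 43.7 ± 5.52 FPKM (−0.30, adjusted p = 0.0181), which did not pass with upper-quartile or quantile scaling. Slc29a4, which encodes the plasma membrane monoamine transporter PMAT, was the 1 gene of the other uptake transporters above the filter. It fell from 26.0 ± 2.66 to 14.9 ± 1.77 FPKM (log2 fold change −0.76, limma adjusted p = 1.57e-04).

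None of the other 12 serotonin receptors reached the filter. Htr3a, the ion channel subunit with the highest level among them, was at 0.67 ± 0.563 FPKM in FL against 0.519 ± 0.295 FPKM in KO, and Htr1a, Htr1f and Htr2c were listed at 0 in all libraries. Of 10 genes of receptor coupling 4 were called lower, against 16.5% of all tested genes: Gna11, Gnai2, Gnaz and Plcb4 fell by 0.18, 0.34, 0.19 and 0.27 on the log2 scale. All 4 calls were lost with upper-quartile scaling, those of Gnai2, Gnaz and Plcb4 with equal sums (limma adjusted p = 0.0545, 0.0515 and 0.0712), and those of Gnai2 (0.0781) and Plcb4 (0.0529) with no filter. Gnai2 also lost its call without FL2, FL3, FL5, KO1 or KO4 (limma adjusted p up to 0.0642), and Plcb4 without any of these or KO5 (up to 0.0661). Tgm2, a transglutaminase that can attach serotonin to proteins, rose from 4.14 ± 0.829 to 7.14 ± 2.24 FPKM (limma adjusted p = 0.036), a call that held without FL1, KO3 or KO4 and was lost when any 1 of the other libraries was left out (adjusted p up to 0.0847) or with no filter (0.08).

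**Figure D4:**
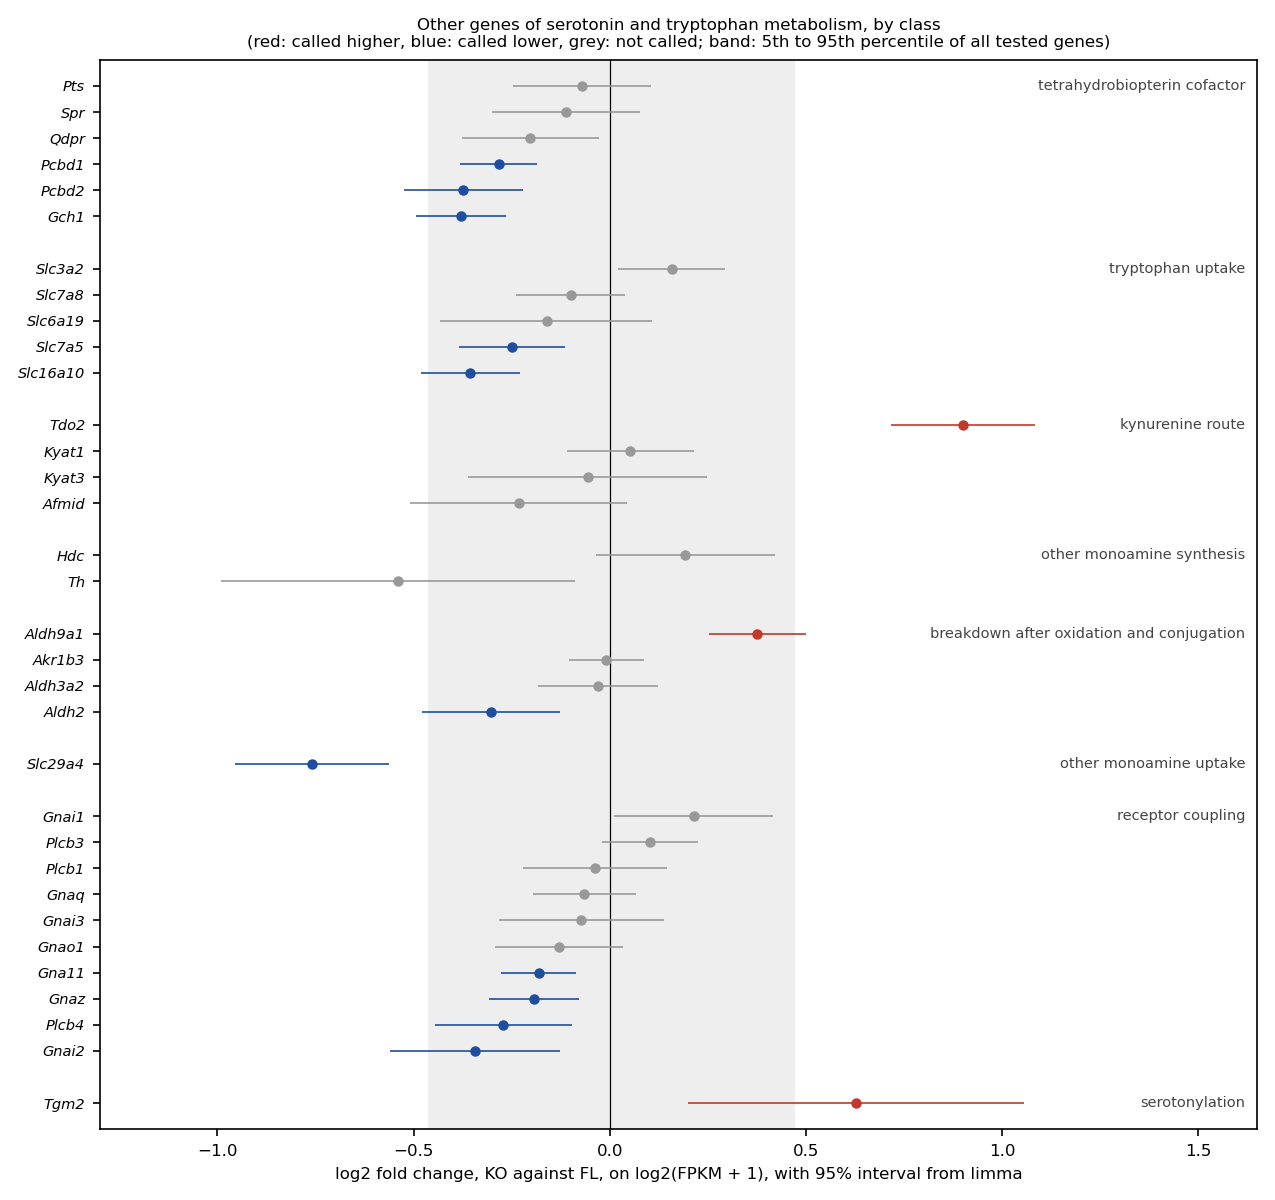
Log2 fold change on log2(FPKM + 1), with 95% intervals from limma, for 33 of the 35 tested genes of serotonin and tryptophan metabolism, grouped by class. Red points (Tdo2, Aldh9a1, Tgm2) were called higher, the 11 blue points lower and the grey points in neither direction, and the band is the 5th to 95th percentile of all tested genes.

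Tph1 in β-cells is known as a target of lactogen signaling through STAT5, and a list of 15 genes of that pathway had calls in both directions. Of 13 tested, 5 were called higher and 5 lower, against 9.05% and 16.5% of all tested genes, with a median log2 fold change of −0.03. The list mixes receptors, signal carriers and target genes, so these counts and the median do not give a direction for the pathway. Cish rose from 17.2 ± 2.86 to 66.3 ± 9.86 FPKM (log2 fold change 1.89, limma adjusted p = 2.34e-06) and Socs2, also a STAT5 target, from 16.6 ± 0.773 to 38.8 ± 2.62 FPKM, and Prlr, the receptor, from 41.1 ± 1.94 to 52.4 ± 7.2 FPKM (limma adjusted p = 0.0196). Tnfrsf11b, a decoy receptor for RANKL, had the largest change of the list, from 1.63 ± 0.137 to 47.2 ± 9.22 FPKM (log2 fold change 4.18), and Ehhadh rose from 8.39 ± 0.448 to 14.5 ± 1.35 FPKM (0.72). Ghr, Stat5a, Stat5b, Ccnd2 and Bcl6 were called lower, with log2 fold changes of −0.39, −0.30, −0.23, −0.49 and −0.38. The call of Ccnd2, whose groups overlapped, was lost with no filter (limma adjusted p = 0.0661).

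Cells other than β-cells can make or carry serotonin, and their markers were read beside the route. Of 8 mast cell markers, Mcpt4, Tpsb2, Cma1, Fcer1a, Ms4a2 and Mrgprb2 were listed at 0 in all libraries and Cpa3 in all KO libraries, and the summed level ranged over 2.7–4.8 FPKM in FL against 2.33–4.2 FPKM in KO, nearly all of it Kit. The 6 platelet markers summed to 1.38–2.93 FPKM in FL and 2.39–3.09 FPKM in KO, and Treml1 was listed at 0. Of enterochromaffin markers, Lmx1a and Chga were listed at 0 in all libraries, Tac1 was at 1.96 ± 1.34 and 3.53 ± 2.12 FPKM, and Chgb was at 702 ± 66.4 FPKM in FL and listed at 0 in all KO libraries. Of the transcription factors of serotonin neurons, Fev was at 7.97 ± 1.38 FPKM in FL against 7.13 ± 1.82 FPKM in KO (limma adjusted p = 0.49). Lmx1b fell from 5.52 ± 1.29 to 1.79 ± 0.405 FPKM (log2 fold change −1.21, limma adjusted p = 1.82e-04), and En1 was listed at 0. Gata2 was at 1.6 ± 0.328 FPKM in FL against 2.02 ± 0.508 FPKM in KO (limma adjusted p = 0.285). Gata3, under the filter, was at 0.00117 ± 0.00261 and 0.0103 ± 0.0153 FPKM. These 5 genes summed to 12.1–17.3 FPKM in FL and 8.2–13.8 FPKM in KO. Of the 24 genes of these 4 lists 7 could be tested, of which Lmx1b and Chgb were called lower, against 16.5% of all tested genes, and the other 5 were not called. The zeros of Chgb, as those of Ins2 or Chga, may be failed estimates, so its call is not read as a fall.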

How the data were processed

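The submitters' processing notes name STAR 2.5.2a and Cuffnorm 2.2.1 with mm10/GRCm38; the annotation release is not given in the sources used here. The authors deposited FPKM for 47340 genes, with 1 column per mouse, from stranded polyA libraries of single 75-nt reads. All value columns belong to mapped mice. FPKM hold no read number, so depth was estimated from the step between low values of single-transcript genes of 1000 to 6000 nt, and read numbers are approximations.

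The test of KO against FL was a linear model per gene in limma 3.58.1 (R 4.3.3), with trended empirical Bayes variances, on log2(FPKM + 1). It covered genes whose mean reached 1 FPKM in either group, with Benjamini-Hochberg adjustment over all of them. Single genes and ratios were given an exact permutation test, two-sided, of 5 against 5 mice. The fit was also tried on simulated data, and no result given here rests on that. Tables were made with pandas 2.3.3 and numpy 2.4.6 in Python 3.11.15, and plots with matplotlib 3.10.9. Alternatives were other pseudocounts, filters, scalings, variance models, thresholds, the replicate number as a block, and leaving out each library; leaving out genes listed at 0 in a whole group was chosen after seeing the data, as was the attention given to FL1 and KO5.

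The members and all lists were chosen with earlier results of these data known. Genes were named by a rule: all 10 members, every called gene of the wider list and the most abundant reported gene of each of its classes, the 5 genes most like Tph1, and Fitm2. Neighbouring genes, the other uncalled genes of the wider list, Prlr, Cish, Socs2, Fev, Lmx1b and the other genes of the marker lists that are named were picked after their values were seen. Values of 2 genes of the wider list, which are part of its counts, are not reported here. Coordinates are from GENCODE release M21 (46841 of 47340 identifiers matched without version) and promoter sequences from RefSeq.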

Additional observations from a re-analysis of the deposited data

Results flagged for a closer look

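Of 70 groups of 5 libraries 5 had a library far from the rest by Dixon's criterion (gap over range above 0.71), where chance gives about 1 in 20 groups, or 3.5. Tph1 was at 16.4 FPKM in KO2 and at 9.9 to 11.5 FPKM in the other KO mice, and without KO2 its log2 fold change was 3.47. Tph2 was at 1.1 FPKM in FL1 and at 0.221 to 0.327 FPKM in the other FL mice. FL1 had the lowest estimated depth, and whether this bears on Tph2 was not tested. Maob was at 152 FPKM in FL4 and at 122 to 129 FPKM in the other FL mice, and without FL4 its log2 fold change was −0.35 (limma adjusted p = 0.0212, and 0.0029 to 0.0311 over all alternatives). Slc7a5 was at 168 FPKM in KO2 and at 144 to 150 FPKM in the other KO mice. Aldh3a2 was at 76.3 FPKM in FL4 and at 63.8 to 67.3 FPKM in the other FL mice.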

How the results depend on the processing

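The calls of Tph1, Tph2, Slc18a1, Ddc and Maob held under every pseudocount, scaling, variance model and left-out library tried. Tph2 could not be tested with a minimum of 5 FPKM. With at least 1.5-fold required, 0 of the 10 genes were called lower. Over all genes, 1183 were called higher and 2150 lower. Upper-quartile scaling, which moved the median of all genes by 0.105, gave 2007 and 899, median-ratio scaling 1547 and 1685, equal sums (TPM) 1470 and 1536, and quantile normalization 1494 and 1708. An adjusted p of at most 0.01 gave 622 and 1044, and at least 1.5-fold 349 and 290. Of the wider list, 5 were higher and 5 lower with upper-quartile scaling, 5 lower at 0.01 and 1 lower at 1.5-fold. Leaving out each library gave 936 to 1130 higher and 1589 to 2367 lower genes, and 2 to 3 and 9 to 14 in the wider list.

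Replicate numbers did not pair the mice (same-numbered correlations −0.102 to 0.00305). With the replicate number as a block 874 genes were higher and 1494 lower, and among the 10 genes and the called genes of the wider list the calls of Gna11 (adjusted p = 0.0511 from limma) and Gnaz (0.062) were lost.

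Differences near 0 changed sign. Slc6a4 was at 0.000038 with median-ratio and 0.00305 with upper-quartile scaling and −0.018 to 0.0104 without single libraries, and Slc18a2 at −0.000971 to 0.0756. Aldh3a2 was at 0.0189, 0.0851, 0.0374 and 0.0142 with median-ratio, upper-quartile, quantile and TPM scaling, 0.0103 with sample weights and −0.0559 to 0.0256 without single libraries. Htr3a was at 0.055 and 0.284 with 0.1 and 0.01 FPKM added and −0.239 to 0.0545 without single libraries. For genes under 1 FPKM depth limits what can be read.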
